A study of Mus musculus with 6 samples.

Results

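Wdfy1 and 9 genes linked to it in Toll-like receptor (TLR) signalling from endosomes were examined in blood stem and progenitor cells with and without BRM. The 10 genes are Wdfy1, its paralogue Wdfy2, the receptors Tlr3, Tlr4, Tlr7 and Tlr9, the adaptor genes Ticam1 and Myd88, the chaperone gene Unc93b1 and the transcription factor gene Irf3. They were taken by symbol from the 55487 genes of the count tables, and all 10 were found. Wdfy1 was chosen because it differed between the genotypes in these libraries, so its values are given as a description, without a test. The other 9 were chosen for their known link to it.

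Wdfy1 encodes a protein with WD repeats and a FYVE domain, a fold that binds phosphatidylinositol 3-phosphate on early endosomes. It is described as a helper that brings TRIF, the adaptor encoded by Ticam1, to TLR3 and to internalised TLR4. TLR3 senses double-stranded RNA and signals through TRIF to IRF3, which induces type I interferon. TLR7 and TLR9 sense single-stranded RNA and unmethylated CpG DNA in endosomes and signal through MyD88, and UNC93B1 carries the nucleic acid sensing receptors from the endoplasmic reticulum to the endosome.

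The libraries came from 3 wild-type (WT) and 3 Brm-/- (BrmKO) mice, with the strain background given as C56Bl/6. Brm, now Smarca2, encodes one of the alternative ATPase motors of SWI/SNF, a family of complexes that move nucleosomes. The cells were LSK cells, sorted as lineage-negative, c-KIT and SCA1 positive marrow cells, a gate that contains the blood stem cells and their multipotent progeny, with no culture or stimulation named. The age and sex of the mice, and which stretch of Brm was removed, are not stated in the labels.

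Reads in genes numbered 28.01 to 36.46 M per library, and 3 reads, used as the floor, correspond to 0.0828 to 0.105 CPM (reads per 1000000 reads in genes, scaled between libraries). Smarca2 held 6284, 6932 and 4270 reads in WT replicates 1 to 3 and 805, 761 and 958 in BrmKO, 15.1% of the WT level. Kit, a gene of the gate, and Cd34, a progenitor marker outside it, were abundant in both groups. They stood at 941 ± 91.0 and 996 ± 32.8 CPM in WT and 976 ± 27.5 and 1047 ± 17.7 in BrmKO (SD, n = 3). Ly6a, which encodes SCA1, was at 24.7 ± 6.19 CPM in WT and 30.5 ± 4.84 in BrmKO. Its exons cover 1205 bases against 8911 for Kit and 7290 for Cd34, and CPM is not scaled for length. None of the 8 stem and progenitor markers passed in edgeR's quasi-likelihood test. The replicates numbered 3 in both groups had the most reads outside genes, 8.41% and 9.29% against 5.79% to 6.61% in the other libraries. Marker genes of other lineages were detected, but a bulk library does not show which cells carried them. The 9 endothelial and stromal markers summed to 202 to 377 CPM in WT and to 196 to 249 in BrmKO, mostly Pecam1, at 153 ± 6.64 and 152 ± 12.7 CPM. Their median log2 difference was -1.43, with 8 of 9 below 0. In 5 of the 9 BrmKO lay wholly lower, as in 5.37% of all genes tested, among them Kdr at 16.9 ± 9.26 and 6.27 ± 1.58 CPM. None of the 9 passed (smallest edgeR adjusted p = 0.0849, for Pdgfra). The 12 macrophage and monocyte markers summed to 625 to 744 and 558 to 647 CPM, with a median log2 difference of -0.36 and 9 of 12 below 0, and none passed. The part that cells of other lineages play in the values below was not tested except where stated. In a bulk library, fewer cells of a type and less RNA per cell cannot be told apart.

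Of the 10 genes, 9 had enough reads to be tested and Tlr9 did not. Wdfy1 was the only one of the 9 to pass an adjusted p of 0.05 (edgeR, Benjamini-Hochberg over all genes), where 22 of the 15691 genes tested did, 0.140% (0.0829% higher in BrmKO and 0.0574% lower), and nothing is read from it because it was chosen by that contrast. None of the other 8 passed in edgeR or limma-voom. Among them 1, Tlr3, had an unadjusted p under 0.05, as did 5.85% of all tested genes, and Tlr3 passed in DESeq2, which called 0.956% of genes. In 2 of these 8 the libraries of the genotypes did not overlap, against 11.1% of all genes tested: Tlr3 lay higher in BrmKO, as 5.69% of genes did, and Wdfy2 lay lower, as 5.37% did. The libraries did not overlap in Wdfy1 either, from which nothing is read.

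**Figure D1:**
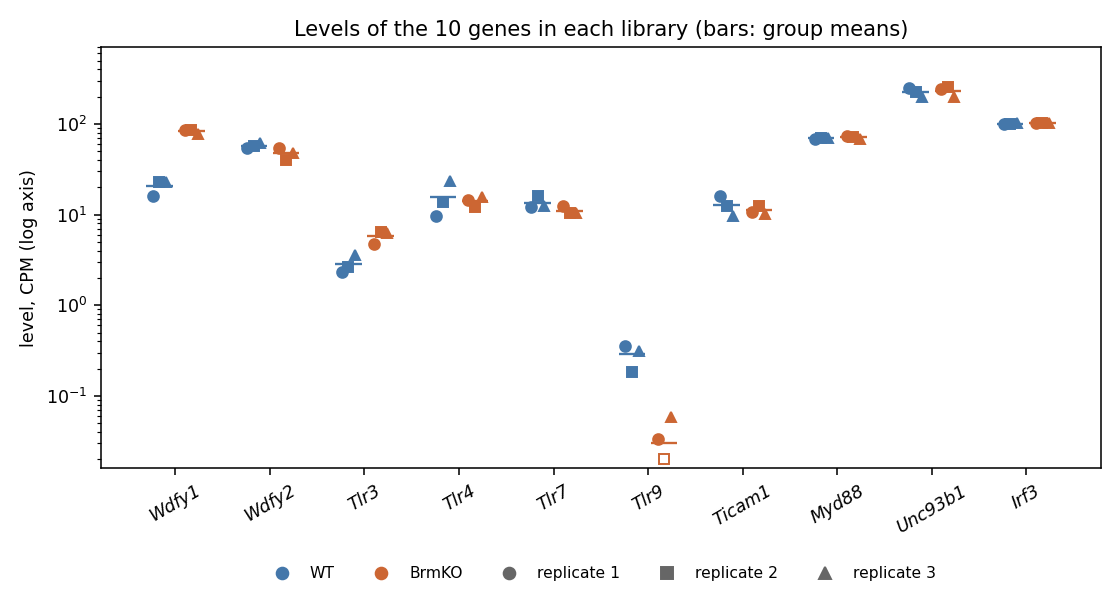
Level of each of the 10 genes in each library, in CPM on a log axis; circles, squares and triangles are replicates 1 to 3, WT in blue and BrmKO in orange, and horizontal bars are group means. Wdfy1 sits at 16.2 to 23.0 CPM in WT and 78.1 to 86.1 in BrmKO, Tlr3 at 2.35 to 3.59 and 4.71 to 6.45, while Irf3, Myd88 and Unc93b1 overlap; the open square for Tlr9 marks a library with 0 reads.

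Wdfy1 (ENSMUSG00000073643.11, GRCm38 chromosome 1, 79702262 to 79776143, minus strand) was about 4 times more abundant in BrmKO. It stood at 16.2, 23.0 and 22.9 CPM in WT replicates 1 to 3 and at 84.7, 86.1 and 78.1 CPM in BrmKO replicates 1 to 3, from 587 to 748 and from 2470 to 2687 reads. Every BrmKO library lay above every WT library, and the smallest ratio between any BrmKO and any WT library was 3.40 and the largest 5.31. The means were 20.7 ± 3.90 and 83.0 ± 4.24 CPM (SD, n = 3), a 4.01-fold difference, or 2.003 ± 0.144 on the log2 scale (SE). With any one library left out, the log2 difference was 1.85 to 2.09. By CPM per kilobase of exon, Wdfy1 lay above 42.2% of tested genes in WT and above 68.9% in BrmKO.

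Reads of other genes that could enter the Wdfy1 count were looked for. The annotation gives Wdfy1 14 transcripts, and its exons share 126 bases, 1.94% of their length, with Mrpl44, which is transcribed from the opposite strand. Mrpl44, a gene of the mitochondrial ribosome, was at 68.3 ± 11.1 CPM in WT and 65.3 ± 5.66 in BrmKO, a log2 difference of -0.06 ± 0.13 (edgeR adjusted p = 0.999). None of the 10 genes had a copy elsewhere at 95% identity or more over 50% of its longest transcript. The files give 1 count per gene, so which of the 14 transcripts carried the difference was not analysed here.

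Wdfy2 (chromosome 14, 62837678 to 62961509, plus strand) encodes the closest relative of WDFY1, a FYVE protein of early endosomes known for binding AKT in adipocytes. It was measured at 54.4, 56.6 and 61.1 CPM in WT and 54.3, 40.5 and 48.2 in BrmKO. A narrow gap separated WT from BrmKO, with BrmKO replicate 1 just under the lowest WT library. The means were 57.4 ± 3.46 and 47.6 ± 6.92 CPM, a log2 difference of -0.27 ± 0.12 that did not pass (edgeR adjusted p = 0.844, 95% interval of the fold 0.687 to 1.004).

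Per kilobase of exon, the only scale on which levels of different genes are compared here, the order of the paralogues was opposite in the 2 genotypes. The ratio of Wdfy1 to Wdfy2 was 0.422, 0.576 and 0.531 in WT replicates 1 to 3 and 2.21, 3.01 and 2.29 in BrmKO. Wdfy2 was thus the more abundant paralogue in every WT library and Wdfy1 in every BrmKO library. The mean ratio was 0.510 ± 0.0792 in WT and 2.51 ± 0.441 in BrmKO (SD, n = 3), and the sum of both genes was 9.44 ± 0.916 and 17.98 ± 0.877 CPM per kilobase. Both are descriptions, since they contain Wdfy1.

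**Figure D2:**
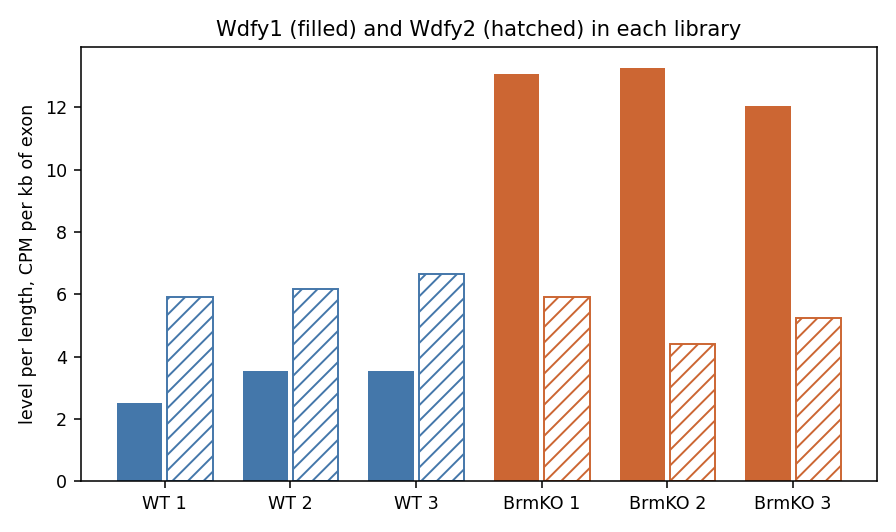
Level per length of Wdfy1 (filled bars) and Wdfy2 (hatched bars) in each library, in CPM per kilobase of exon, WT in blue and BrmKO in orange. Wdfy1 is the lower bar of each pair in the 3 WT libraries and the higher in the 3 BrmKO libraries, with a ratio to Wdfy2 of 0.422 to 0.576 and 2.21 to 3.01.

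Among all 10 genes, Wdfy1 was 7th in level per length in WT, at 3.19 ± 0.602 CPM per kilobase, and 4th in BrmKO, at 12.8 ± 0.653. Unc93b1 was the highest in both genotypes, at 74.6 ± 8.50 and 76.1 ± 9.75 CPM per kilobase, followed by Irf3 at 29.3 ± 0.461 and 29.7 ± 0.0726 and Myd88 at 27.2 ± 0.404 and 27.8 ± 0.903. In WT the order went on with Wdfy2, Ticam1, Tlr7, Wdfy1, Tlr4, Tlr3 and Tlr9. The WT libraries did not separate Ticam1 from Tlr7, Tlr7 from Wdfy1, or Wdfy1 from Tlr4, and all other neighbours in the order had ranges apart. In BrmKO, Wdfy1 came directly after Myd88 and above Wdfy2, and only Tlr7 and Tlr4 overlapped. The mean level of Wdfy1 lay within the range of the 4 receptors in WT and above it in BrmKO. With the longest transcript in place of all exons as the length, Wdfy1 was 5th in WT and above all 4 receptors there too, at 4.55 CPM per kilobase against 3.83 for Tlr4 and 3.48 for Tlr7.

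Tlr3 (chromosome 8, 45395665 to 45411080, minus strand), the double-stranded RNA receptor, was higher in all 3 BrmKO libraries than in any WT library, at low levels. It held 85, 85 and 102 reads in WT and 141, 185 and 218 in BrmKO, or 2.35, 2.62 and 3.59 CPM and 4.71, 6.45 and 6.34 CPM. The means were 2.85 ± 0.652 and 5.83 ± 0.971 CPM (SD, n = 3), a 2.05-fold difference, with a log2 value of 1.04 ± 0.27. It did not pass over all genes in edgeR (unadjusted p = 0.00355, adjusted p = 0.369, 95% interval of the fold 1.35 to 3.11). It passed in DESeq2 (adjusted p = 0.0443), and over 12 alternatives the adjusted p ran from 0.0443 to 0.961 while the log2 difference stayed between 0.91 and 1.23. Exons of Tlr3 share 381 bases, 7.32% of their length, with the antisense gene Gm45542, and the library kit does not mark strand, so reads from that stretch cannot be assigned to either gene.

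Markers of conventional dendritic cells are given here because these cells are known for high Tlr3. The list of 7 summed to 163, 231 and 447 CPM in WT replicates 1 to 3 and to 448, 709 and 685 CPM in BrmKO, so WT replicate 3 and BrmKO replicate 1 were nearly equal. Of the 6 tested, none passed (edgeR), 3 had an unadjusted p under 0.05, and 5 of 6 differences were above 0. The sum was carried by the class II genes H2-Ab1 and Cd74, which B cells and other cells also express. H2-Ab1 was at 75.5, 107 and 218 CPM in WT and 223, 342 and 344 in BrmKO. The chemokine receptor gene Xcr1 of cross-presenting dendritic cells stood at 1.63, 4.0 and 6.01 CPM and at 5.38, 8.64 and 7.71 CPM. Zbtb46, a dendritic lineage factor, stood at 15.1 ± 4.36 and 21.5 ± 3.66 CPM. Clec9a was at or under 2.01 CPM in every library and Cd209a was at 0 in 3 of the 6. Within WT, replicate 3 had the highest Tlr3, H2-Ab1, Xcr1 and Zbtb46, and within BrmKO, replicate 1 had the lowest of each, markers named after their values were seen. Other markers of the list did not follow that order: Clec9a was highest within WT in replicate 2, and Itgax was lowest within BrmKO in replicate 2, at 6.03 ± 2.16 CPM in WT and 5.58 ± 0.647 in BrmKO. The part of dendritic cells in the Tlr3 difference was not tested.

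**Figure D3:**
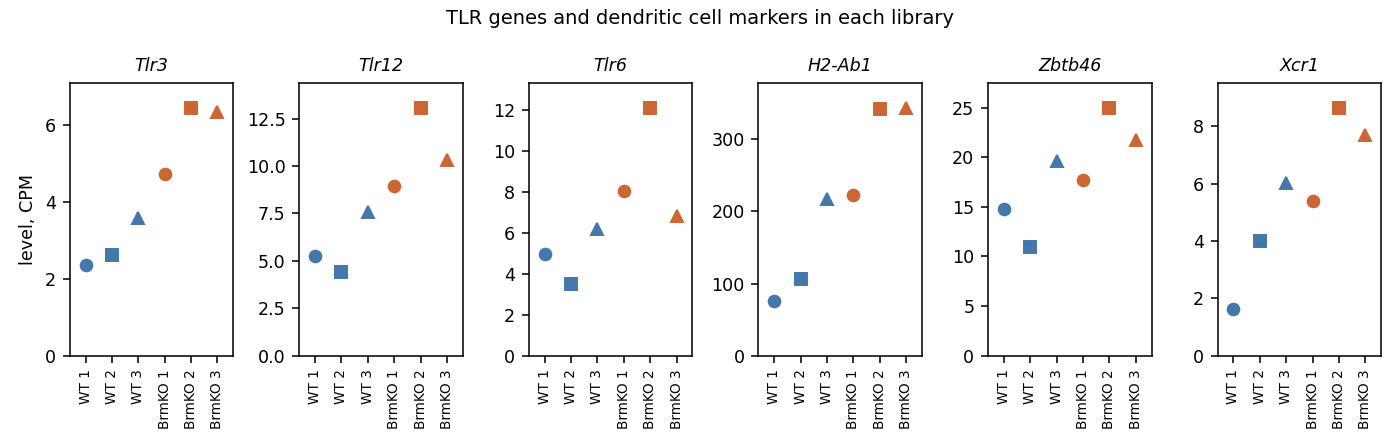
Levels in CPM of 3 receptor genes (Tlr3, Tlr12, Tlr6) and 3 dendritic cell markers (H2-Ab1, Zbtb46, Xcr1) in the 6 libraries, each panel with its own linear axis from 0, WT in blue and BrmKO in orange. WT replicate 3 is the highest WT library in all 6 panels. For H2-Ab1 it stands at 218 CPM beside 223 in BrmKO replicate 1, and for Xcr1 and Zbtb46 the genotypes overlap. Itgax, a marker with a log2 difference of -0.11, is not shown.

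The stretch directly upstream of the Tlr3 start in RefSeq is shown because IRF3 and IRF7, the factors at the end of the pathway, bind sites of the AANNGAAA type, and Tlr3 is the one receptor of the set whose genotypes did not overlap upward. It covers 72 bases at chr8:45410381-45410452 (GRCm38.p6, RefSeq) and is printed 5′ to 3′ on the minus strand, the gene's own, with its last base next to the start. It lies between annotated exons, in an intron of the longer transcripts.

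Tlr3 upstream stretch: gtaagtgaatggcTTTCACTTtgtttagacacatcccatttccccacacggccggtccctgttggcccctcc

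The capitals mark the one match, which reads AANNGAAA on the other strand. The last capital, the base of the match nearest the start, lies 52 bases upstream of it. Searched on both strands, AANNGAAA was present in 23.9% of the 32851 RefSeq promoter windows of 300 bases. Windows were found for 6 of the 10 genes, namely Wdfy2, Tlr3, Tlr9, Ticam1, Myd88 and Irf3, and not for Wdfy1, Tlr4, Tlr7 and Unc93b1. The motif was in those of Tlr3, Myd88 and Wdfy2. The longer interferon-stimulated response element, searched likewise and containing the shorter motif, was in the window of Myd88 alone among the 6, and in 3.44% of all windows. These matches describe letters, and no binding was measured.

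Tlr4 (chromosome 4, 66827584 to 66930284, plus strand), the lipopolysaccharide receptor and the other receptor that uses TRIF, did not differ beyond the spread of the WT libraries. It was measured at 9.58, 13.7 and 23.6 CPM in WT and 14.4, 12.2 and 15.6 in BrmKO. WT spanned the whole BrmKO range, with WT replicate 3 the highest of the 6. The log2 difference was -0.15 ± 0.29 (edgeR adjusted p = 0.999, 95% interval of the fold 0.575 to 1.42), and without WT replicate 3 it was 0.28. Its partner genes Ly96 and Cd14 were at 4.66 ± 1.13 and 4.93 ± 0.621 CPM in WT and 4.66 ± 1.117 and 3.38 ± 0.484 in BrmKO, and neither passed. In Cd14 every BrmKO library lay below every WT library, as in 5.37% of all genes tested, and in Ly96 the genotypes overlapped.

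Tlr7 (X chromosome, 167304929 to 167330558, minus strand), the single-stranded RNA receptor, was measured at 12.1, 16.0 and 12.6 CPM in WT and 12.3, 10.3 and 10.4 in BrmKO. BrmKO replicate 1 lay within the WT range and the other two below it. On the log2 scale the difference was -0.30 ± 0.17 and did not pass (edgeR adjusted p = 0.951, 95% interval of the fold 0.620 to 1.06).

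Tlr9 (chromosome 9, 106222598 to 106226883, plus strand), the CpG DNA receptor, was close to the limit of detection, with 13, 6 and 9 reads in WT and 1, 0 and 2 in BrmKO. The WT libraries held 28 reads in all and the BrmKO libraries 3. Scaled for library size, BrmKO over WT was 0.112, with a 95% interval from 0.0218 to 0.362 that covers counting error only and not the spread between mice. Tlr9 fell under the count filter and was not tested in the fit reported, and with no filter its edgeR p was 0.0215 and its adjusted p 0.856. Plasmacytoid dendritic cells and B cells are known for Tlr9. The 8 markers of plasmacytoid dendritic cells summed to 203 to 217 CPM in WT and 201 to 217 in BrmKO, mostly Tcf4 and Bst2, while Siglech was under 1.11 CPM in every library and Klk1 had no read. The 8 B lineage markers summed to 71.0 to 82.8 and 62.0 to 77.1 CPM. The part of B cells in the Tlr9 counts was not tested.

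Unc93b1 (chromosome 19, 3935186 to 3949340, plus strand), the chaperone of the endosomal receptors, was the most abundant of the set. It was measured at 252, 226 and 200.4 CPM in WT and 241, 254 and 197 in BrmKO. The ranges coincided almost fully, and replicate 3 was the lowest in both genotypes. The log2 difference was 0.03 ± 0.12 (edgeR adjusted p = 0.999, 95% interval of the fold 0.845 to 1.23), and it was -0.05 without WT replicate 3 or without BrmKO replicate 2.

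Ticam1 (chromosome 17, 56269319 to 56276786, minus strand), which encodes TRIF, was at 16.1, 12.3 and 9.67 CPM in WT and 10.8, 12.4 and 10.1 in BrmKO. All BrmKO libraries lay within the WT range. On the log2 scale the difference was -0.20 ± 0.21 (edgeR adjusted p = 0.999, 95% interval of the fold 0.632 to 1.21), and it was 0.01 without WT replicate 1. The adaptor that WDFY1 is described to recruit was not detectably different in the libraries where Wdfy1 was about 4 times higher.

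Myd88 (chromosome 9, 119335934 to 119341411, minus strand), the adaptor of TLR7, TLR9 and of TLR4 at the cell surface, was measured most tightly together with Irf3. It was measured at 68.8, 70.7 and 70.4 CPM in WT and 73.3, 72.5 and 68.9 in BrmKO. The log2 difference was 0.03 ± 0.08 (edgeR adjusted p = 0.999), and the 95% interval of the fold, 0.899 to 1.16, leaves out a change of the size seen in Tlr3. Its exons share 290 bases, 11.3% of their length, with Acaa1a on the opposite strand.

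Irf3 (chromosome 7, 44997648 to 45002848, plus strand), the transcription factor activated by TRIF, was nearly the same in every library. It was at 99.2, 101 and 102 CPM in WT and at 102 CPM in each BrmKO library. On the log2 scale the difference was 0.02 ± 0.08 (edgeR adjusted p = 0.999, 95% interval of the fold 0.8997 to 1.14). IRF3 is regulated mainly by phosphorylation, which RNA levels do not show.

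The rest of the pathway was read from 7 gene lists with 107 tested genes. None of these genes passed over all genes in edgeR, where the smallest adjusted p was 0.123, and none passed in limma-voom. An unadjusted p under 0.05 was found for 20 of the 107 in edgeR, against 5.85% of all genes. In DESeq2, which called 0.956% of all genes, 4 passed, namely Pik3ap1, Irf7, Rel and Cxcl10. Medians of log2 differences are given below beside that of all genes, which was -0.01.

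The other Toll-like receptors and their co-receptors had the highest median, 0.65 over 10 tested genes, with 7 above 0 and 3 below. Of the 10, 4 had an unadjusted p under 0.05. The median was between 0.32 and 0.72 with any one library left out, and lowest without WT replicate 1. It includes Tlr1, Tlr11 and Tlr13, at means of 1.24, 1.46 and 0.642 CPM in WT and 2.66, 2.72 and 2.19 in BrmKO. They lay above 0 and were not among the 4. Tlr11 and Tlr13 had 0 reads in WT replicate 1, and their log2 differences were 0.91 ± 1.04 and 1.78 ± 0.89 (SE). How far the median rests on these low-count genes was not tested, so no rise of the list as a whole is read from it. Tlr12, a partner of TLR11 in sensing profilin, was measured at 5.25, 4.43 and 7.59 CPM in WT and 8.93, 13.1 and 10.3 in BrmKO. The log2 difference was 0.90 ± 0.25 (edgeR adjusted p = 0.451). Tlr6, a co-receptor of TLR2 for lipopeptides, stood at 4.97, 3.48 and 6.19 CPM and at 8.02, 12.1 and 6.80 CPM, 0.88 ± 0.29 (edgeR adjusted p = 0.653). In both, named for their small p, every BrmKO library lay above every WT library. This held for 4 of the 10 tested genes of the list and for 5.69% of all genes tested. Of the 6 dendritic cell markers tested, 5 lay above 0 and Itgax lay below. Tlr6 was lowest within BrmKO in replicate 3, whereas H2-Ab1, Xcr1 and Zbtb46 were lowest in replicate 1. The part of dendritic cells in the Tlr12 and Tlr6 differences was not tested. Ly86, which encodes the partner protein of CD180, was at 33.3 ± 5.93 CPM in WT and 24.3 ± 3.34 in BrmKO (edgeR adjusted p = 0.720). Tlr8, an endosomal receptor beside Tlr7 on the X chromosome, had 0 reads in BrmKO against 31 in WT. It fell under the count filter as Tlr9 did, and with no filter its edgeR p was 0.000917 and its adjusted p 0.196.

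The genes that traffic and process endosomal receptors had a median of 0.03 over 13 tested genes, 7 above 0 and 6 below, and 1 with an unadjusted p under 0.05. That gene was Rab7b, a late endosomal GTPase, at 11.6 ± 2.35 CPM in WT and 16.7 ± 3.71 in BrmKO (edgeR adjusted p = 0.795). Ctss, a protease that cleaves endosomal receptors, stood at 33.0 ± 1.67 and 36.9 ± 3.12 CPM. Hsp90b1, the chaperone gp96 needed for receptor folding, stood at 349 ± 62.6 and 307 ± 28.2 CPM. None of the 3 passed.

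Adaptors and kinases downstream of the receptors had a median of -0.03 over 27 tested genes, 11 above 0 and 16 below, with 2 at an unadjusted p under 0.05. Pik3ap1, the BCAP adaptor that links receptors to phosphoinositide 3-kinase, was measured at 86.2, 78.3 and 79.4 CPM in WT and 115, 121 and 105 in BrmKO. The 2 sets of libraries were apart, as in 4 of the 27 tested genes of the list and 11.1% of all genes tested. The log2 difference was 0.48 ± 0.09 (edgeR adjusted p = 0.123). Tab3, a partner of the kinase TAK1, stood at 18.4 ± 1.13 and 14.5 ± 1.48 CPM (edgeR adjusted p = 0.798), and Tirap, the adaptor that bridges TLR4 to MyD88, at 11.2 ± 0.634 and 14.02 ± 1.18 CPM (edgeR adjusted p = 0.849).

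The transcription factors at the end of the pathway had a median of 0.11 over 10 tested genes, 7 above 0 and 3 below, with 4 at an unadjusted p under 0.05. Irf7, the interferon-inducible factor downstream of TLR7 and TLR9, was at 40.6, 46.8 and 45.3 CPM in WT and 60.7, 58.1 and 63.5 in BrmKO, 0.46 ± 0.10 on the log2 scale (edgeR adjusted p = 0.218). Rel, the NF-kB subunit c-Rel, stood at 34.9, 38.4 and 29.5 CPM and at 20.995, 23.1 and 24.7 CPM, -0.58 ± 0.13 (edgeR adjusted p = 0.259). Relb, the subunit of the alternative NF-kB pathway, stood at 8.79 ± 0.252 and 11.97 ± 0.953 CPM (edgeR adjusted p = 0.716). In each of the 3, named for their small p, the libraries of the genotypes were apart, upward for Irf7 and Relb and downward for Rel. The genotypes were apart in 4 of the 10 tested genes of the list, against 11.1% of all genes tested.

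Target genes induced through TRIF, IRF3 and NF-kB showed no common direction as a whole list, with a median of -0.08 over 12 tested genes. Of these, 5 lay above 0 and 7 below, and 5 had an unadjusted p under 0.05. The 5 above 0 were Cxcl10, Ifit1, Ifit2, Ifit3 and Isg15. The 7 below were Ccl4, Ccl5, Il1b, Il6, Tnf, Nfkbia and Tnfaip3. Whether kinds of target gene within the list differ in direction was not tested. Cxcl10, an interferon-induced chemokine gene, was measured at 3.12, 2.65 and 1.51 CPM in WT and 8.83, 3.34 and 8.61 in BrmKO, 1.51 ± 0.41 on the log2 scale (edgeR adjusted p = 0.435). Ifit1, which binds viral RNA, stood at 12.3 ± 2.54 and 20.8 ± 5.93 CPM (edgeR adjusted p = 0.549), and Isg15, a ubiquitin-like modifier, at 7.21 ± 1.03 and 11.5 ± 2.31 CPM (edgeR adjusted p = 0.587). In all 3, named for their small p, the genotypes were apart, and BrmKO replicate 2 was the lowest BrmKO library. The genotypes were apart in 4 of the 12 tested genes of the list, against 11.1% of all genes tested. Ccl4 and Ifit3 also had an unadjusted p under 0.05, in opposite directions and with overlapping genotypes. Their log2 differences were -0.64 ± 0.25 (edgeR adjusted p = 0.795) and 0.86 ± 0.35 (edgeR adjusted p = 0.802). The interferon genes Ifnb1 and Ifna4 had no read in any library. The list's median turned positive when WT replicate 1 or 2, or BrmKO replicate 3, was left out, and it lay between -0.24 and 0.12 with any one library left out.

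Cytosolic nucleic acid sensors, which work beside the endosomal receptors, had a median of 0.14 over 8 tested genes, 6 above 0 and 2 below, with 3 at an unadjusted p under 0.05. Zbp1, a sensor of Z-form nucleic acids, stood at 10.1 ± 3.72 and 17.4 ± 0.757 CPM (edgeR adjusted p = 0.653). Aim2, the inflammasome sensor of DNA, stood at 37.8 ± 4.38 and 29.99 ± 1.15 CPM (edgeR adjusted p = 0.706). Dhx58, which encodes the RNA sensor LGP2, stood at 35.0 ± 8.58 and 46.4 ± 5.93 CPM (edgeR adjusted p = 0.828).

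Other genes of FYVE-domain proteins and of the endosomal lipid that they bind lay close to 0 on the log2 scale. Their median was 0.02 over 27 tested genes, 15 above 0 and 12 below, and the most extreme log2 differences were -0.32 and 0.34. The one gene with an unadjusted p under 0.05 was Zfyve27, which encodes protrudin, at 109 ± 4.79 CPM in WT and 129 ± 9.74 in BrmKO (edgeR adjusted p = 0.720). Zfyve26 stood at 46.5 ± 2.71 and 40.9 ± 3.25 CPM and Zfyve1 at 27.1 ± 1.85 and 32.7 ± 8.01 CPM, and neither passed. Whether Wdfy1 differs from the other FYVE genes was not tested, since it was chosen for its difference.

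**Figure D4:**
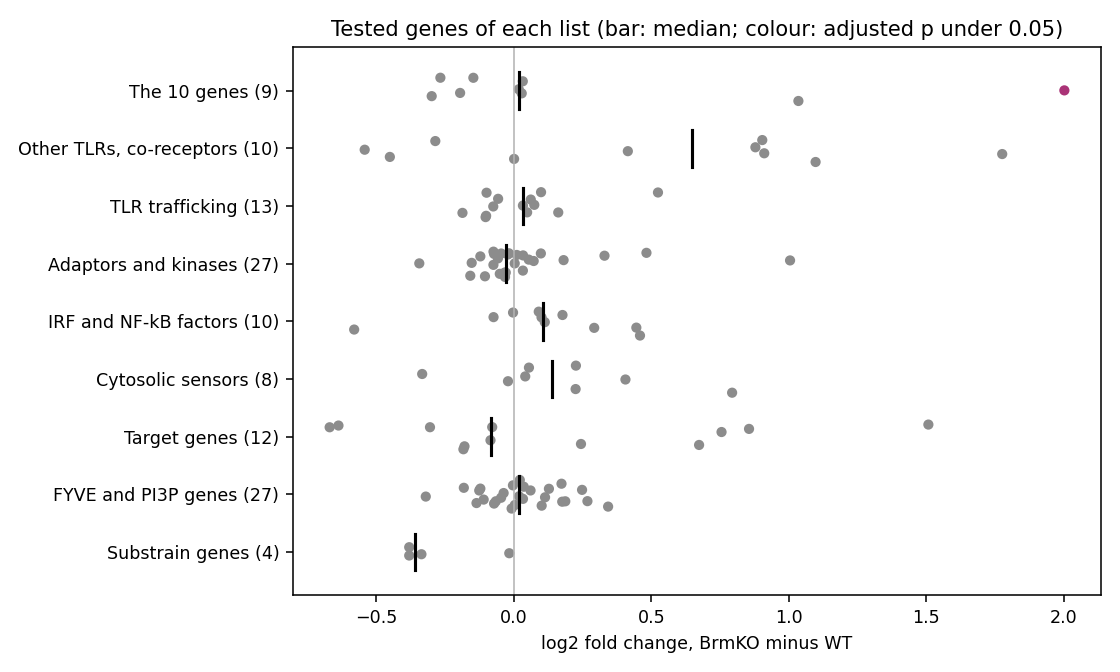
Log2 difference, BrmKO minus WT, of every tested gene of the 10, of each pathway list and of the substrain list, one point per gene, with the number tested in brackets; black bars are medians and the purple point passed an adjusted p of 0.05. The purple point is Wdfy1 at 2.003, the gene at 1.04 in its row is Tlr3, and the FYVE genes lie between -0.32 and 0.34.

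A list of 5 genes known to differ between C57BL/6 substrains was added because the labels give no substrain. None of the 4 tested passed (edgeR), and their median was -0.36. Nnt, which lacks exons in C57BL/6J, was low in both genotypes, at 1.78 ± 0.927 CPM in WT and 1.36 ± 0.529 in BrmKO. Cyfip2 stood at 378 ± 35.2 and 374 ± 39.5 CPM and Entpd4 had 1 read in all. Ide stood at 251 ± 50.1 and 199 ± 16.6 CPM (edgeR unadjusted p = 0.0381, adjusted p = 0.802) and Fgfbp3 at 5.82 ± 0.576 and 4.47 ± 0.482 CPM. Ide, Fgfbp3, Pik3ap1, Zfyve27, Ifit1 and Unc93b1 lie on chromosome 19, as Smarca2 does. So do Chuk, Nfkb2, Rela, Ifit2 and Ifit3 of the lists, with log2 differences of -0.05, -0.003, 0.09, 0.24 and 0.86. The part of position in the values of all these genes was not tested.

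No tested gene around Wdfy1 was higher in every BrmKO library than in every WT library. Counting genes whose lower coordinate lies within 2 Mb of that of Wdfy1, 15 others were tested, and none passed in edgeR, DESeq2 or limma-voom. In edgeR, 3 had an unadjusted p under 0.05, as 5.85% of all genes did, namely Sgpp2, Utp14b and Dock10, all lower in BrmKO, and Dock10 was named after its values were seen. The median log2 difference was -0.18, with 3 above 0 and 12 below. In 5 of the 15 the BrmKO libraries lay wholly below WT, as in 5.37% of all genes tested. The nearest tested genes on each side were Mrpl44, given above, and Ap1s3, a subunit gene of a clathrin adaptor, at 0.706 ± 0.298 and 0.937 ± 0.325 CPM (log2 difference 0.41 ± 0.50, edgeR adjusted p = 0.999). Sgpp2, a sphingosine phosphatase gene, stood at 0.800 ± 0.647 and 0.0755 ± 0.0704 CPM (edgeR adjusted p = 0.479). Utp14b, a ribosome assembly gene, stood at 8.16 ± 1.47 and 4.85 ± 0.801 CPM (edgeR adjusted p = 0.568).

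**Figure D5:**
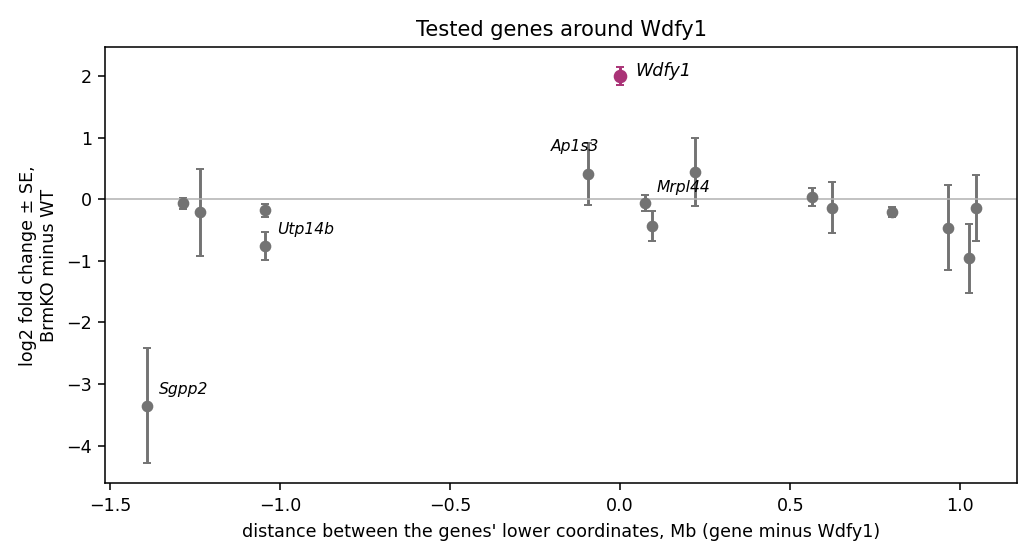
Log2 difference, BrmKO minus WT, with SE, of Wdfy1 (purple) and the 15 other tested genes within 2 Mb, against the distance of the gene's lower coordinate, whichever its strand, from that of Wdfy1 in Mb. Wdfy1 stands at 2.003, the others lie between -3.35 and 0.45, and the lowest, Sgpp2, is expressed under 1 CPM.

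Over the 6 libraries, the genes whose log2 CPM followed Wdfy1 most closely were Tbc1d23 (Pearson r = 0.989), Pspc1 (0.988), Leprotl1 (0.987), Rtkn2 (0.985) and Nipal3 (0.982), the highest of 10154 protein-coding genes with a mean of at least 5 CPM. They are ranked by likeness alone, and 99 genes had r of at least 0.9. The 6 points share the gap between genotypes, which sets most of each value, so these are descriptions with no p. The differences behind them were much smaller than that of Wdfy1: Tbc1d23 stood at 25.6 ± 2.48 and 39.4 ± 2.21 CPM, 1.54-fold, and Pspc1 at 54.4 ± 0.427 and 63.8 ± 0.254 CPM, 1.17-fold. Among the members, r with Wdfy1 was 0.931 for Tlr3, 0.676 for Irf3 and 0.557 for Myd88, 0.03 for Unc93b1, 0.04 for Tlr4, and -0.449 for Ticam1, -0.619 for Tlr7 and -0.686 for Wdfy2.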

How the data were processed

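RNA was measured in 6 libraries of sorted LSK marrow cells, 3 WT and 3 BrmKO, from separate mice. The p-values measure the spread between these samples. The deposited values are raw whole-number read counts per Ensembl gene, and per the submitters' processing notes the authors used bcl2fastq, FastQC, STAR, HTSeq and DESeq2 with GRCm38. For versions and the strand setting: not given in the sources used here. Per the labels' protocols, lineage-positive cells were depleted before sorting and libraries were prepared by the SMART-Seq v4 method for little RNA, which marks neither strand nor molecule. Floors and the counting interval of Tlr9 therefore allow for counting error alone, while 95% intervals of a fold come from edgeR and include the spread between libraries.

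The 5 rows that name no gene were left out of library sizes. Reads outside genes made 5.79% to 9.29% of a library. Names, positions and exon lengths came from GENCODE M21, matched on the Ensembl identifier without its version, with a position for 55227 of 55487 genes. Tasl was not matched. Library totals were 28.01 to 36.46 M.

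BrmKO was compared with WT by edgeR 4.0.16 (R 4.3.3, quasi-likelihood, robust, TMM, filterByExpr), with Benjamini-Hochberg adjustment over 15691 genes and a threshold of 0.05. DESeq2 1.42.0 and limma-voom (limma 3.58.1), other size factors, no filter, a replicate block and leaving out each library were alternatives, and leaving out replicate 3 of both groups was added after seeing the data. Levels are CPM on TMM-scaled sizes, mean ± SD. Likeness used log2 CPM with a prior count of 2. Copies were searched with minimap2 2.31. The tests were tested on simulated data first.

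The members, lists and tests were chosen with earlier results of these data known. Named by rule were all members, up to 3 genes per list by p, all substrain genes, the nearest tested neighbour of Wdfy1 on each side and 2 more by p, and the 5 genes most like it. Any other marker or gene was named after its values were seen. Every pair of libraries differed by more than sampling noise, with a chi-square of 13.4 to 49.0 for each degree of freedom.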

Additional observations from a re-analysis of the deposited data

How the results depend on the processing

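Wdfy1 was higher in BrmKO and Wdfy2 and Tlr7 were lower under all 12 alternatives run, by 1.85 to 2.12, -0.37 to -0.16 and -0.38 to -0.16 on the log2 scale. Nothing is read from Wdfy1 here, since it was chosen by this contrast in the same libraries. Of the 108 such values over the 9 tested members, 5 turned direction. Tlr4 was 0.20 without replicate 3 of both groups, and with any one library left out Tlr4 ranged from -0.40 to 0.28, Ticam1 from -0.36 to 0.012 and Unc93b1 from -0.052 to 0.13. DESeq2 called 150 genes (91 higher, 59 lower), 2 members (Wdfy1 and Tlr3) and 4 pathway genes. Without the count filter edgeR called 58 genes (40 higher, 18 lower). With a library left out edgeR called 6 to 36 genes (2 to 22 higher, 3 to 14 lower): 7, 6 and 36 on leaving out WT replicate 1, 2 or 3, and 9 on leaving out BrmKO replicate 1. Members called stayed at 1, the chosen gene Wdfy1, and pathway genes at 0 in those fits. Causes were not tested. With exon length from the longest transcript, Wdfy1 was 5th in place of 7th per length in WT.

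The labels do not say that a replicate number pairs libraries. Deviations of libraries with the same number correlated at 0.05, 0.01 and 0.19, and WT replicate 2 and BrmKO replicate 1 did not correlate best with their own number. The libraries numbered 3 differed less from each other (chi-square per degree of freedom 19.4) than from their own groups (29.9 to 45.1). With the replicate number as a block, 25 genes passed (15 higher, 10 lower), Tlr3 had an adjusted p of 0.199, and no call on a member, list or neighbour changed. At these depths Tlr9 and Tlr8 are limited by counting.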
